A study of Danio rerio with 12 samples.

Results

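The fatty acid and retinol binding proteins described here are 10 zebrafish genes, taken by symbol from a liver RNA-sequencing table of 14581 genes: fabp10a, fabp1a, fabp2, fabp3, fabp6, fabp7a and fabp11a, and rbp4, rbp2a and rbp2b. All 10 are in the table, and 9 passed a filter of at least 1 FPKM in at least 3 libraries, which 9190 genes passed in all. FPKM counts fragments relative to transcript length and library size, so levels of different genes can be set side by side. The libraries came from wild-type adult zebrafish (Danio rerio), separated into single tanks at 3 months of age and then given either DMSO, the solvent, or β-estradiol, the main ovarian estrogen, every day for 6 weeks. Each sex and treatment had 3 libraries, making 4 groups in all. No label states that each library is a different fish, so p-values measure the spread between libraries, and the DMSO and estradiol libraries carry separate runs of numbers (7 to 12 and 19 to 24), so any effect of those runs and that of treatment cannot be told apart.

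Fatty acid binding proteins are small barrel-shaped proteins of the cytosol that carry fatty acids, bile acids and other lipids. Vertebrate tissues differ in the members of the family they use. The cellular retinol-binding proteins of the rbp2 type belong to the same family and carry retinol (vitamin A) inside cells, whereas Rbp4 belongs to another family, is secreted by liver and carries retinol in blood. In zebrafish liver the fabp10a gene is the usual hepatocyte marker, and its product binds bile acids. In mammals Fabp2 and Rbp2 are known from the absorbing cells of the small intestine and Fabp6 from the ileum. The names of fabp3 (heart and muscle), fabp7a (brain) and fabp1a (liver) also follow mammalian counterparts. RefSeq now lists fabp11a as fabp4a, a relative of the mammalian adipocyte protein.

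The libraries held transcripts known as markers of other organs, which touch several of the results. Whether these came from other tissue or from the liver itself was not tested. All 23 hepatocyte markers found in the table, such as those of fibrinogen and prothrombin, were at 1 FPKM or more in every library. Male livers had a mean log2(FPKM + 1) of these markers of 10.2 to 10.6 under DMSO and 7.42 to 10.2 under estradiol, and female livers one of 9.34 to 9.73 and 7.55 to 8.72. Intestine markers (19 found) had a mean of 3.39 and 3.48 in female DMSO replicates 1 and 2 and of 0.141 to 0.887 in the other 10 libraries. Oocyte markers (18 found) reached 6.30 and 5.39 in male estradiol replicates 1 and 3 and 6.44 and 4.37 in female estradiol replicates 1 and 3, against 0.00393 to 3.19 elsewhere. Exocrine pancreas markers (17 found) ran from 6.35 to 8.47 under DMSO and from 1.22 to 4.64 under estradiol. In bulk tissue, fewer cells of a type and less RNA per cell cannot be told apart.

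**Figure D1:**
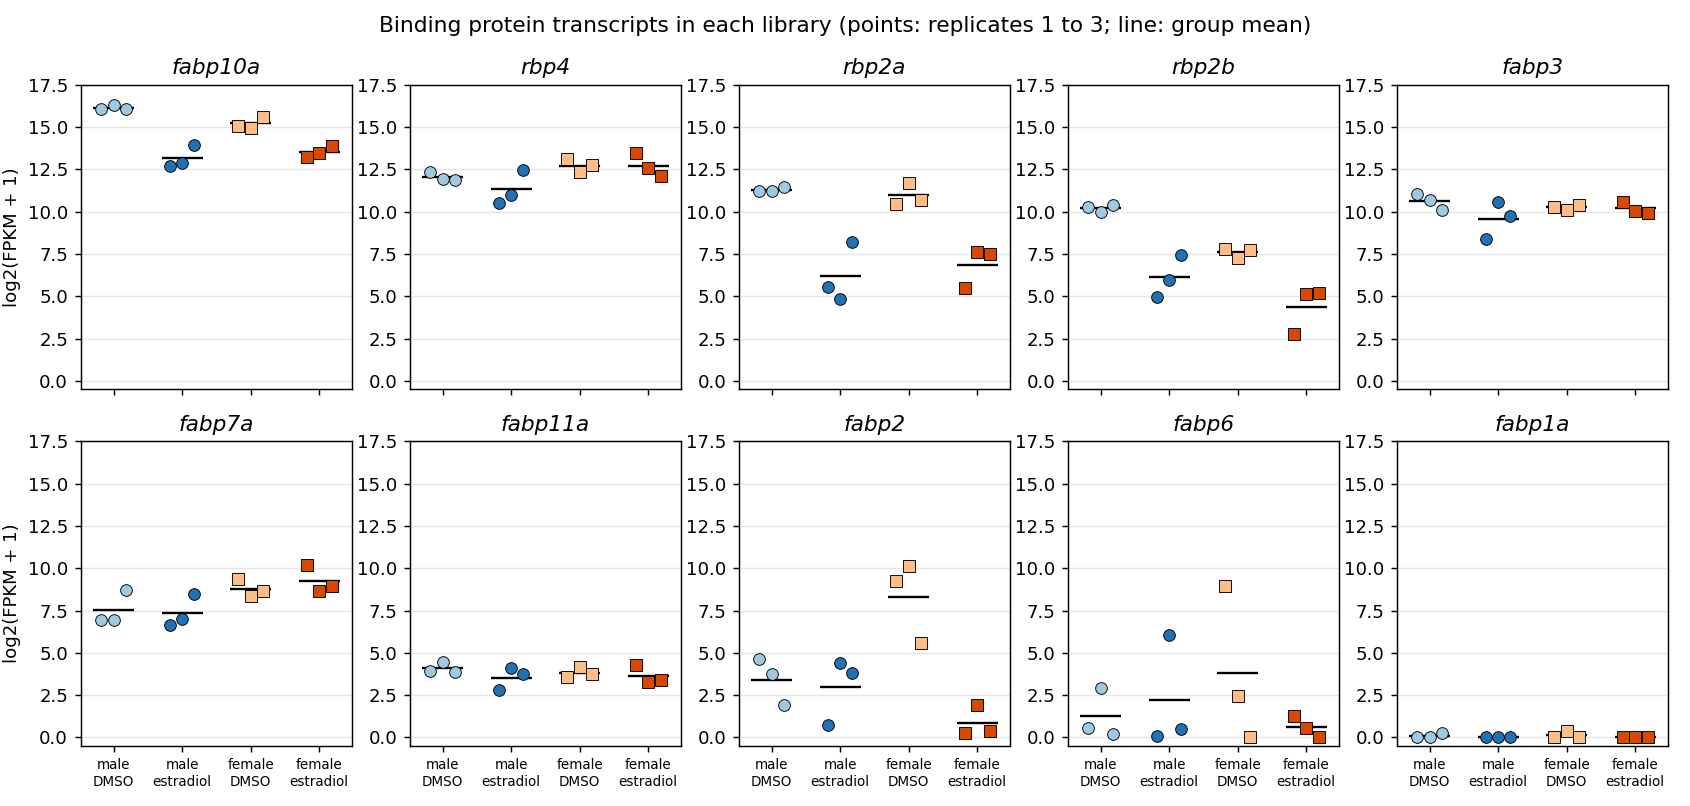
Each panel shows 1 gene on the same log2(FPKM + 1) axis, with 1 point for each of the 12 libraries and a line at the mean of each group of 3. fabp10a, rbp2a and rbp2b are lower in both estradiol groups than in the DMSO group of the same sex without overlap, as is fabp2 in females but not in males, and fabp6 is high in single libraries.

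Estradiol lowered 3 of the 9 members tested in males (fabp10a, rbp2a and rbp2b) and 3 in females (rbp2a, rbp2b and fabp2), and raised none in either sex by limma at an adjusted p under 0.05. Over all genes tested, 3.79% passed in males (2.91% lower and 0.881% higher) and 2.73% in females (2.24% lower and 0.49% higher). At an unadjusted p under 0.05 the same 3 members passed in males, and fabp10a joined the other 3 in females. Of all 9190 genes, 2473 passed this limit in males and 1743 in females. The median log2 change of the members tested was -0.71 in males, against 0.21 over all genes, and -1.68 in females, against -0.08. These medians describe the members that passed the filter, which fabp2 and fabp6 passed with 9 and 5 libraries at 1 FPKM or more and the others in all 12.

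fabp10a was the most abundant transcript of the table in all 6 DMSO libraries. It stood at 68625, 82284 and 69565 FPKM in male DMSO and at 6559.8, 7578 and 15596.5 FPKM in male estradiol. In female DMSO it was 35078, 32209.5 and 50080 FPKM, and in female estradiol 9842, 11473 and 15325.5 FPKM. Every estradiol library was below every DMSO library of either sex, and the female DMSO libraries were all below the male ones. The gene took 9.38% to 11.3% of the summed FPKM of male and 3.87% to 5.67% of that of female DMSO libraries. Under estradiol it took 0.964% to 2.78% in males and 0.809% to 3.01% in females. The female and estradiol shares leave out vitellogenin, since all 6 vitellogenin genes of the table are listed at 0 in those libraries. Such a 0 can be a failed estimate. The male DMSO shares include these genes, with vtg1 at 35.0 to 310 FPKM there.

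In males the fall of fabp10a, from 73492 ± 7629 to 9911 ± 4949.7 FPKM (mean ± SD, n = 3), passed the test (log2 change -2.99, SE 0.49, adjusted p = 0.00592). The means differ 7.41-fold. The call held without each of the 12 libraries in turn (adjusted p at most 0.0426). It ended with quantile normalization, where the change was -1.52 (adjusted p = 0.121). That scaling sets each level by its rank in the library, and fabp10a ranked 1 in male DMSO and 2 to 11 in male estradiol. The call also ended in 3 alternatives where the change was nearly the same size: no filter on low values (adjusted p = 0.0730), a fit of the male groups alone (0.113) and the oocyte marker level as a covariate (0.101). In females the values went from 39122 ± 9597 to 12214 ± 2815.5 FPKM, a 3.203-fold difference without overlap that did not pass the threshold (log2 change -1.68, SE 0.49, adjusted p = 0.0936). It passed in 4 alternatives, among them a filter of 5 FPKM (adjusted p = 0.0373, with 5.09% of all genes called). The fit without male estradiol replicate 1 was another (0.0258, with 5.46%). No overlap with the estradiol group lower was found for 11.4% of all genes in males and 18.8% in females, and with it higher for 18.5% and 9.98%. The test of the difference between the sexes gave a log2 difference of 1.32 (SE 0.70, adjusted p = 0.535).

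The hepatocyte marker list was also below the DMSO range of the same sex in every estradiol library but male estradiol replicate 2. fabp10a stood above the mean of that list by 5.50, 5.82 and 5.91 on the log2 scale in male DMSO and by 5.26, 2.68 and 4.97 in male estradiol. In female DMSO the margin was 5.59, 5.63 and 5.88, and in female estradiol 5.71, 5.12 and 5.18. In males the margin was lower in every estradiol library than in every DMSO library, while in females the treatments overlapped. It was smallest in male estradiol replicate 2, where the hepatocyte list was at 10.2, inside the male DMSO range, and fabp10a was at 7578 FPKM. That library had an oocyte list mean of 1.73, below the 2 other libraries of its group. The part of the hepatocyte level in the fall of fabp10a was not tested. The share of all genes whose margin to the list had no overlap in males was not counted either.

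**Figure D2:**
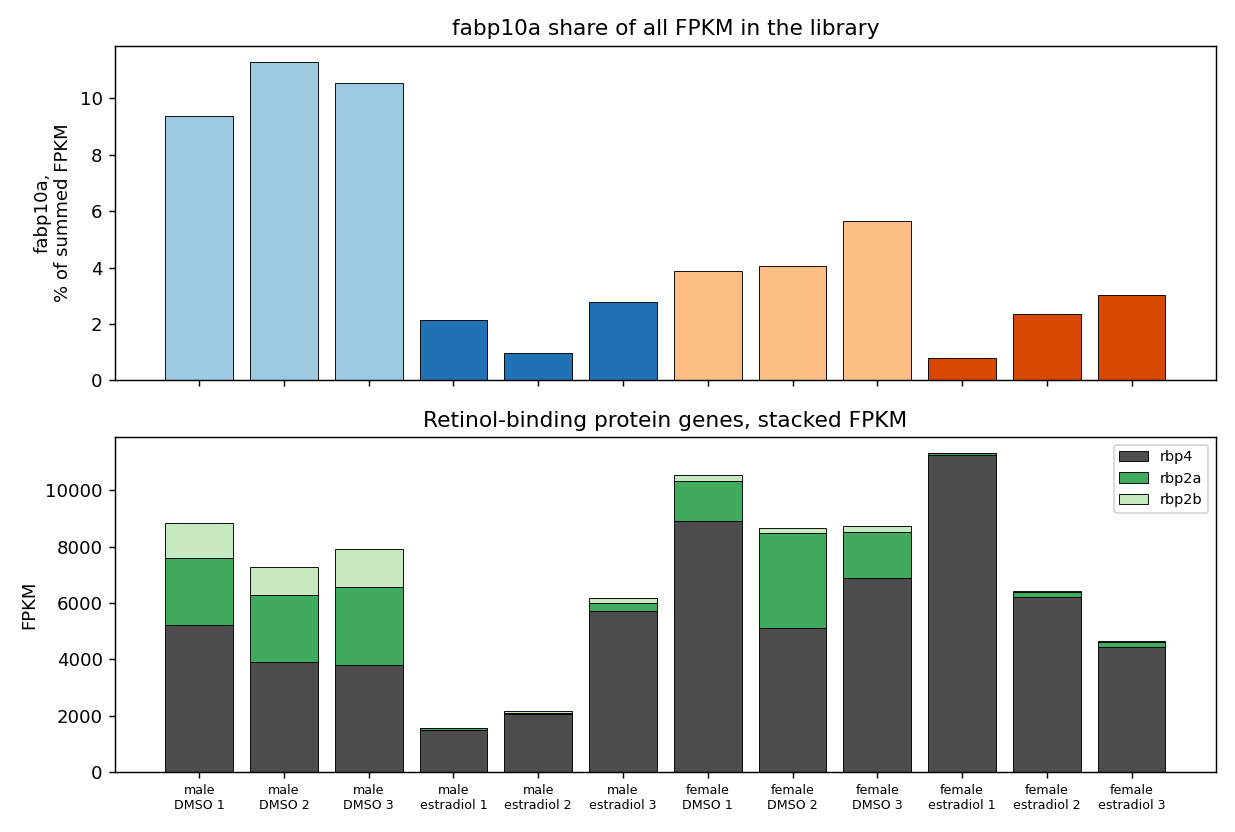
The upper bars give fabp10a as a percentage of the summed FPKM of each library, and the lower bars stack the FPKM of rbp4, rbp2a and rbp2b. fabp10a takes 9.38% or more in each male DMSO library and at most 3.01% in each estradiol library, and the rbp2a and rbp2b parts of the lower bars nearly vanish under estradiol.

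rbp2a, a cellular retinol-binding gene, was among the abundant transcripts of DMSO livers and fell in both sexes. Its levels were 2379, 2378 and 2768 FPKM in male DMSO and 46.7, 28.1 and 290.5 FPKM in male estradiol. In females they were 1415, 3380.3 and 1648 FPKM under DMSO and 43.6, 195 and 181 FPKM under estradiol. The lowest DMSO library was above the highest estradiol library by a wide margin in each sex. The male change was -5.08 on the log2 scale (SE 0.81, adjusted p = 0.00482) and kept its call in all 27 alternatives, with changes of -6.43 to -4.41. The female change was -4.09 (SE 0.81, adjusted p = 0.0242).

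The call for rbp2a in females ended without female DMSO replicate 1 (adjusted p = 0.0730), female DMSO replicate 2 (0.0887) or female estradiol replicate 1 (0.0697), while the change stayed between -4.46 and -3.40 over the runs that left out 1 library. It also ended with quantile normalization (-3.38, adjusted p = 0.0826) and after rescaling to an equal total that omits vitellogenins and the top 10 genes (-3.75, 0.105). Female DMSO replicates 1 and 2, the 2 libraries rich in intestine markers, were also left out together. This left 1 library in that group, too few to judge the call, and the change was -3.82. With the intestine marker level as a covariate it was -4.11 (adjusted p = 0.257), in a fit that called 0.12% of all genes in females. Exocrine pancreas markers were also lower in every estradiol library, and their part in the fall of the rbp2 genes was not tested.

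rbp2b, the gene of a second cellular retinol-binding protein of this type, had its highest levels in male DMSO. It stood at 1249, 1006 and 1343 FPKM there and at 29.8, 62.5 and 171 FPKM in male estradiol. In female DMSO it was at 218, 150.2 and 216 FPKM and in female estradiol at 5.94, 34.4 and 35.1 FPKM. By their means the groups stood in the order male then female DMSO, then male and last female estradiol, and of the neighbours in this order only the female DMSO and male estradiol libraries (150.2 to 218 against 29.8 to 171 FPKM) and the 2 estradiol groups (29.8 to 171 against 5.94 to 35.1 FPKM) overlapped. The fall was -4.10 in males (SE 0.70, adjusted p = 0.00686) and -3.22 in females (SE 0.70, adjusted p = 0.0355).

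In males the rbp2b call ended in 1 of 27 alternatives, with the oocyte marker level as a covariate (-3.15, adjusted p = 0.0779). In females it held in 13 of 27. Leaving out any 1 of the male DMSO libraries ended it (adjusted p = 0.0593, 0.0574 and 0.0589 without replicates 1, 2 and 3), as did any 1 of the female DMSO libraries (0.137, 0.0795 and 0.0943) and female estradiol replicates 1 (0.0722) and 2 (0.0534), with changes of -3.62 to -2.43 over the 12 runs. Scaling ended it too, with -3.07 after median-of-ratios scaling (adjusted p = 0.0605), -2.87 after quantile normalization (0.0834) and -2.84 after rescaling (0.158), as did leaving out the filter (0.0564). With the 2 intestine-rich libraries left out, 1 library was left in female DMSO, too few to judge the call, and the change was -3.39. With the intestine marker level as a covariate it was -3.43 (adjusted p = 0.272, with 0.12% of all genes called).

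Relative to the hepatocyte list, both rbp2 genes were lower in every estradiol library than in the DMSO libraries of the same sex. rbp2a was above the list mean by 0.65 to 1.26 on the log2 scale in male DMSO and below it in male estradiol, at -1.85, -5.34 and -0.77. In females it was above by 0.96 to 2.38 under DMSO and at -2.07, -0.75 and -1.21 under estradiol. Under DMSO rbp2b ran from -0.53 to 0.22 in males and -2.10 to -1.73 in females. Under estradiol it ran from -4.21 to -1.53 and -4.76 to -3.22, with no overlap between treatments in either sex. For how many of all genes the same holds against this list was not counted. rbp4 stood above the list by 1.42 to 1.78 in male DMSO and by 3.12, 0.81 and 3.53 in male estradiol. In females it stood above by 2.98 to 3.62 under DMSO and by 5.91, 4.23 and 3.40 under estradiol. The list itself was lower in every estradiol library but male estradiol replicate 2, so a gene of steady level also rises against it. The log2 change of rbp4 itself was -0.71 in males and -0.01 in females, and neither passed.

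rbp2a, placed in intestine by its mammalian counterpart, was also high in libraries with low levels of intestine markers. The 3 male DMSO libraries had rbp2a at 2378 to 2768 FPKM with at most 0.557 FPKM of vil1, the gene of the microvillus protein villin, and an intestine list mean of at most 0.504. Female DMSO replicate 3, with vil1 at 0.0396 FPKM, had rbp2a at 1648 FPKM. Exocrine pancreas markers had a mean of 7.52 to 7.96 in male DMSO and of 8.09 in female DMSO replicate 3. The tissue source of rbp2a was not tested. fabp2, the other gene set as intestinal, was at 2.69 to 23.6 FPKM in male DMSO.

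rbp4, the gene of the plasma retinol carrier, did not pass the test in either sex. It was at 5204, 3911 and 3808 FPKM in male DMSO and at 1492, 2062 and 5725 FPKM in male estradiol. In female DMSO it was at 8924, 5120.2 and 6889 FPKM and in female estradiol at 11274, 6199.9 and 4435 FPKM. The groups of each sex overlapped, and the spread was widest under estradiol. Summed FPKM was 304905 in male estradiol replicate 1 and 1217095 in female estradiol replicate 1, the libraries with the lowest and highest rbp4. As a share of summed FPKM, rbp4 was 0.537% to 0.711% in male DMSO and 0.262% to 1.02% in male estradiol. In females it was 0.647% to 0.984% under DMSO and 0.872% to 1.28% under estradiol. The log2 change was -0.71 in males (95% interval -1.95 to 0.53, adjusted p = 0.441) and -0.01 in females (-1.25 to 1.23, adjusted p = 0.997), so changes of more than 1 log2 unit either way lie inside the female interval.

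The make-up of the retinol-binding transcripts therefore differed between treatments in these libraries. rbp4 was 1.38 to 2.19 times rbp2a in male DMSO and 1.51 to 6.31 times in female DMSO. Under estradiol it was 19.7 to 73.3 times rbp2a in males and 24.5 to 258 times in females. rbp4 made up 48.1% to 58.9% of the summed FPKM of the 3 rbp genes in male DMSO, 59.19% to 84.5% in female DMSO and 92.5% to 99.6% in the 6 estradiol libraries. These ratios are within a library and do not depend on scaling between libraries, and they carry no test here.

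**Figure D3:**
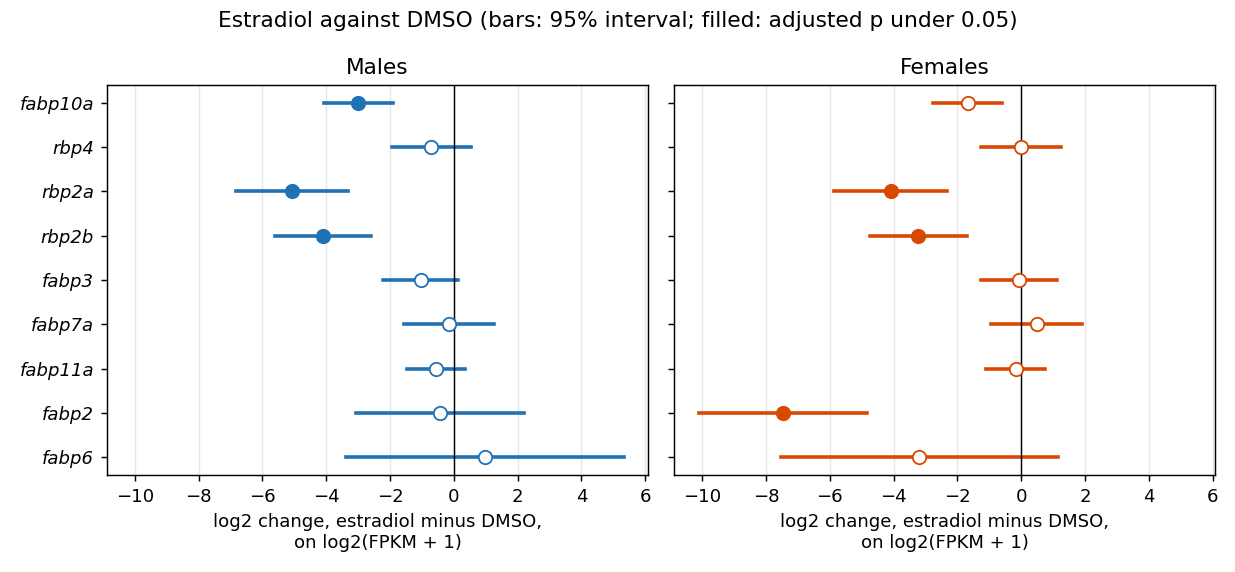
Points give the log2 change of estradiol against DMSO on the log2(FPKM + 1) scale for the 9 members tested, with 95% intervals from limma and filled points where the adjusted p is under 0.05. rbp2a and rbp2b lie to the left of 0 in both sexes, rbp4 spans 0 in both, and the intervals of fabp2 and fabp6 are the widest.

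fabp2, the intestinal fatty acid binding protein gene, ranged from 0.192 to 1122 FPKM over the libraries. It stood at 23.6, 12.3 and 2.69 FPKM in male DMSO and at 0.650, 20.2 and 12.8 FPKM in male estradiol, which overlap. In female DMSO it was at 612, 1122 and 47.3 FPKM and in female estradiol at 0.192, 2.82 and 0.31 FPKM. The 2 libraries at 612 and 1122 FPKM are those with intestine markers, where vil1 was at 36.4 and 59.4 FPKM and slc15a1b, the gene of the intestinal peptide transporter, at 11.1 and 21.5 FPKM. Of the 19 intestine markers, 17 and 15 were at 1 FPKM or more in these 2 libraries, with a summed level of 287 and 408 FPKM, against 0 to 6 markers and 2.26 to 20.97 FPKM elsewhere.

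The female change of fabp2 was -7.47 (SE 1.21, adjusted p = 0.00949), and the male change -0.44 (95% interval -3.08 to 2.204, adjusted p = 0.843). With both intestine-rich libraries left out, 1 library was left in female DMSO, too few to judge the call, and the female change was -4.73. With the intestine marker level as a covariate it was -4.55 (adjusted p = 0.225, with 0.12% of all genes called). It also missed the threshold without female DMSO replicate 1 (-7.00, adjusted p = 0.0554) and without the 4 oocyte-rich estradiol libraries (-6.39, adjusted p = 0.0647). In female DMSO replicate 3 fabp2 was at 47.3 FPKM, above all 9 libraries of the other groups, while 0 of the 19 intestine markers reached 1 FPKM. The difference between the sexes in the estradiol effect was -7.03 (SE 1.71, adjusted p = 0.193). It passed in the run without female DMSO replicate 3 (-8.40, adjusted p = 0.0181, with 0.842% of all genes). That run left only the 2 intestine-rich libraries in female DMSO.

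fabp6, known in mammals as the ileal bile acid binding protein, was high in single libraries. Female DMSO replicates 1 to 3 had 500.4, 4.36 and 0 FPKM. Male estradiol replicate 2 had 64.6 FPKM, and its group's other libraries had 0.0776 and 0.38 FPKM. Male DMSO ran from 0.152 to 6.66 FPKM and female estradiol from 0 to 1.43 FPKM. fabp6 and fabp2 thus parted within female DMSO: fabp2 was 1.22 times fabp6 in replicate 1 and 257 times in replicate 2.

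Of the intestine markers, slc10a2 and slc6a19b were, like fabp6, far lower in female DMSO replicate 2 than in replicate 1. slc10a2, the ileal bile acid transporter gene, was at 8.33 FPKM in female DMSO replicate 1 and 2.34 FPKM in male estradiol replicate 2, at 0 in female DMSO replicate 2, and at most 0.135 FPKM elsewhere. slc6a19b, an amino acid transporter gene, was at 20.3 FPKM in female DMSO replicate 1, 3.29 FPKM in male estradiol replicate 2 and 0.0364 FPKM in female DMSO replicate 2. The order was the opposite for fabp1b.1, another fatty acid binding protein gene, at 387 FPKM in replicate 1 and 1594 FPKM in replicate 2 of female DMSO, 0 in replicate 3 and 0.876 to 63.0 FPKM in the other groups. slc10a2 and slc6a19b were singled out of the intestine list after their values were seen. Most of that list was higher in replicate 2 than in replicate 1 of female DMSO. mep1a.1, mep1a.2, anpepa and pls1 were also lower in replicate 2, by smaller factors. fabp6 had log2 changes of 0.97 in males (SE 1.997, adjusted p = 0.786) and -3.19 in females (SE 1.997, adjusted p = 0.404).

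**Figure D4:**
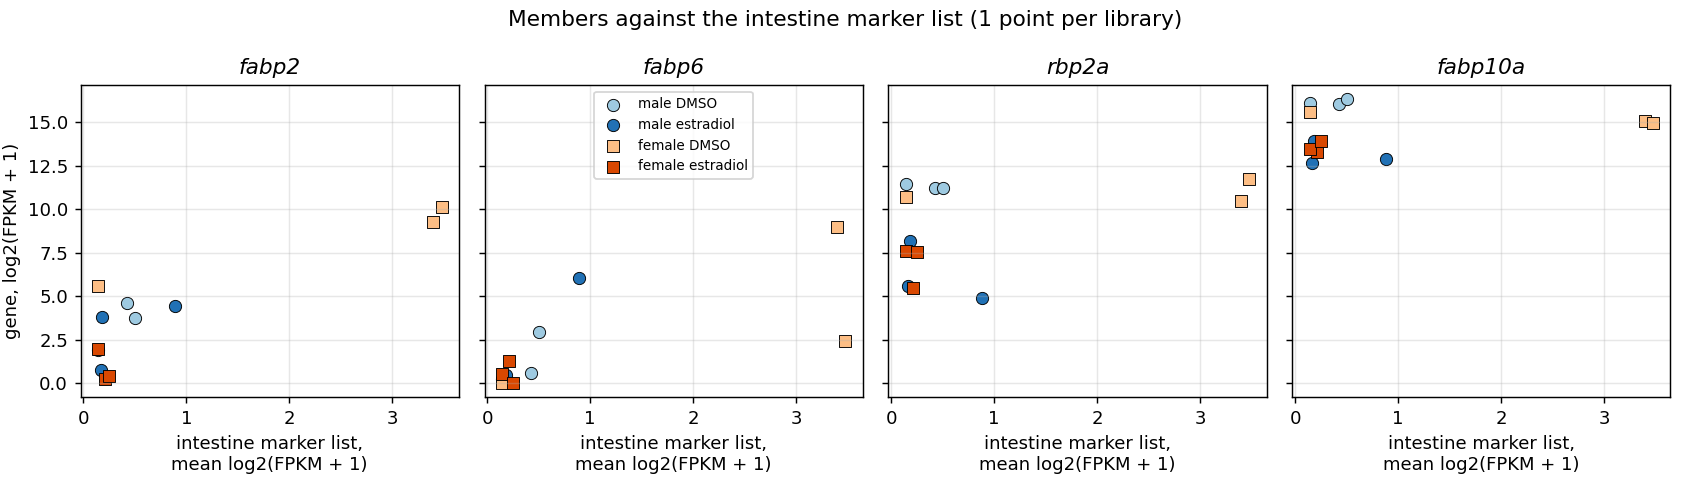
Each panel sets the log2(FPKM + 1) of 1 gene against the mean log2(FPKM + 1) of the intestine marker list, with 1 point per library coloured by group. The 2 female DMSO libraries at 3.39 and 3.48 on the horizontal axis are the highest for fabp2 but differ from each other for fabp6, and rbp2a and fabp10a are high in DMSO libraries at both ends of the axis.

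Setting the liver pair fabp10a and rbp4 against the pair fabp2 and rbp2a, the difference of mean log2 levels was 6.29 to 7.33 in male DMSO and 7.22 to 8.46 in male estradiol. For females it was 2.72 to 6.04 under DMSO and 8.27 to 10.5 under estradiol. The lowest values, 4.25 and 2.72, were those of the same 2 intestine-rich libraries. Gene by gene, fabp10a was 2908 to 25868 times fabp2 in male DMSO, 28.7 to 1059 times in female DMSO, and with estradiol 375 to 10092 times (males) and 4063 to 51154 times (females). The 2 genes set as intestinal parted: rbp2a fell under estradiol in both sexes, while fabp2 in males overlapped between treatments.

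fabp3, fabp7a and fabp11a were present in every library and did not pass the test for estradiol in either sex. fabp3, named for heart and muscle in mammals, was at 2121, 1669.7 and 1078 FPKM in male DMSO and 334, 1545 and 857 FPKM in male estradiol. For females it ran from 1118 to 1323 FPKM with DMSO and from 976 to 1552 FPKM with estradiol. The 11 heart and muscle markers had list means of 0.133 to 0.843, so fabp3 was high in libraries where those markers were near 0. Its change was -1.03 in males (95% interval -2.21 to 0.14, adjusted p = 0.237) and -0.07 in females (-1.25 to 1.11, adjusted p = 0.957). The male change passed without male estradiol replicate 2 (-1.54, adjusted p = 0.0454), in a run that called 24.5% of all genes.

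fabp7a, named for brain in mammals, was at 121, 123 and 419 FPKM in male DMSO and 100.2, 125 and 358 FPKM in male estradiol. Females had 669, 323 and 398 FPKM under DMSO and 1161, 406 and 499 FPKM under estradiol. All 3 female estradiol libraries were above all 3 male ones, which held for 2.62% of all genes, the opposite order holding for 9.68%. Neural and glial markers (4 found) had list means of 0.0134 to 0.321. The estradiol changes were -0.16 in males (95% interval -1.58 to 1.26, adjusted p = 0.893) and 0.48 in females (-0.93 to 1.90, adjusted p = 0.706).

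fabp11a was the steadiest of the members tested, at 5.90 to 21.4 FPKM over the 12 libraries. Its changes were -0.56 in males (95% interval -1.48 to 0.35, adjusted p = 0.410) and -0.17 in females (-1.09 to 0.75, adjusted p = 0.851). The standard deviation of its log2 level over the libraries was below that of 81.5% of the genes tested (percentile 18.5), whereas those of rbp2a, rbp2b, fabp2 and fabp6 stood at percentiles 97.8 to 99.2. fabp1a, whose mammalian counterpart is the main liver fatty acid binding protein, is listed at 0 in 10 libraries and at 0.203 and 0.318 FPKM in male DMSO replicate 3 and female DMSO replicate 2, and was not tested.

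Between the sexes under DMSO, 0 of 9 members tested passed by limma, against 0.555% of all genes (0.239% higher and 0.316% lower in females). At an unadjusted p under 0.05 there were 2 members (rbp2b and fabp2), against 1058 of all 9190 genes. rbp2b was lower in females by 2.63 on the log2 scale, as a change of -2.63 (SE 0.70, adjusted p = 0.129), fabp10a had -0.93 (SE 0.49, adjusted p = 0.514) and fabp2 4.92 (SE 1.21, adjusted p = 0.107). All 3 had no overlap between male and female DMSO libraries, which was so for 12.2% of all genes in the lower and 18.6% in the higher direction. A fit of the DMSO groups alone called all 3 (adjusted p = 0.00191 for rbp2b, 0.0189 for fabp10a and 0.0310 for fabp2), where 12.7% of all genes passed. With quantile normalization fabp10a had a change of 0, since it ranks first in all DMSO libraries. Without female DMSO replicate 3, fabp2 passed in the full fit (6.29, adjusted p = 0.0115, with 1.26% of all genes). That run left only the 2 intestine-rich libraries in female DMSO. Without those 2 libraries the fabp2 difference was 2.18, with 1 library left in that group. With the intestine marker level as a covariate it was 2.21 (adjusted p = 0.932). rbp2b passed without female estradiol replicate 1 (adjusted p = 0.0433, with 1.28%).

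Under estradiol, 0 of 9 members differed between the sexes by limma, against 0.109% of all genes (0.0762% higher and 0.0326% lower in females). At an unadjusted p under 0.05 there were 3 members (fabp7a, rbp2b and rbp4), against 1017 of all 9190 genes. The log2 difference of females from males was 1.90 for fabp7a (SE 0.65, adjusted p = 0.371), -1.75 for rbp2b (SE 0.70, adjusted p = 0.391) and 1.38 for rbp4 (SE 0.57, adjusted p = 0.411). The test of a different estradiol effect in the sexes also passed for 0 of 9, against 0.261% of all genes (0.163% higher and 0.0979% lower). Among the members only fabp2 had an unadjusted p under 0.05, as did 987 of all 9190 genes. The intervals of these differences are wide: for rbp2a the effect in females minus that in males was 0.99 (95% interval -1.50 to 3.48), and for rbp4 0.70 (-1.05 to 2.46).

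Other genes of retinoid handling and fatty acid uptake were taken from lists of named genes. Among 27 retinoid genes tested, 1 rose and 1 fell in males and 1 fell in females. Over all genes tested, 3.79% passed in males and 2.73% in females. The median log2 change of the list was -0.76 in males and -0.37 in females, against 0.21 and -0.08 over all genes. rdh10b, of an enzyme that oxidizes retinol to retinaldehyde, went up in males, with 5.03 ± 1.44 FPKM under DMSO and 65.8 ± 25.0 FPKM under estradiol (log2 change 3.43, SE 0.61, adjusted p = 0.00915). ces3, a carboxylesterase gene, fell in males, with 753 ± 108 FPKM under DMSO and 111 ± 52.9 FPKM under estradiol (log2 change -2.86, adjusted p = 0.0212). In females it went from 254 ± 38.7 to 22.1 ± 15.2 FPKM (-3.77, adjusted p = 0.00803).

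Among 29 genes of fatty acid uptake and activation, 0 rose and 2 fell in each sex. Over all genes tested, 2.91% fell in males and 2.24% in females. The list medians were -0.66 in males and -0.60 in females, against 0.21 and -0.08 over all genes. slc27a2a, whose product takes up and activates long-chain fatty acids, fell in males, with 503 ± 87.0 FPKM under DMSO and 31.3 ± 19.7 FPKM under estradiol (log2 change -4.18, SE 0.58, adjusted p = 0.00273) and in females from 311 ± 74.9 to 39.4 ± 21.5 FPKM (-3.10, adjusted p = 0.0192). slc27a6, of the same transporter family, fell in males from 83.8 ± 36.6 to 3.65 ± 3.96 FPKM (-4.48, adjusted p = 0.00402). pparaa, the gene of a fatty acid-sensing nuclear receptor, fell in females from 20.8 ± 5.72 to 2.85 ± 0.901 FPKM (-2.50, adjusted p = 0.0141).

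The genes most like 4 of the members were ranked by Pearson's r of log2(FPKM + 1) over the 12 libraries, as a description in which the 4 groups share much of the pattern. For fabp10a they were cbsa, gcdh, slc27a2a, fbp1b and prdx6, with r of 0.962 to 0.972. Taken over deviations from the group means, r was 0.166 for prdx6, of the peroxide-removing family, and 0.652 to 0.778 for the others. For rbp2a they were dhh, gstal, slc27a2a, slc47a1 and mgst3 (0.943 to 0.953), so that slc27a2a is on both lists.

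rbp4 had rps21, hint1, mgst1.2, cox7b and rbbp9 (0.889 to 0.913), of which rps21 encodes a ribosomal protein and cox7b a subunit of cytochrome c oxidase. fabp2 had tmem37, tmem98, slc43a2b, ethe1 and gch2 (0.904 to 0.950). slc43a2b, an amino acid transporter gene, averaged 45.1 ± 38.2 FPKM in female DMSO and 0.604 to 2.43 FPKM in the other groups. Within the members, rbp2a and fabp10a had an r of 0.941 (0.680 over deviations from group means) and rbp4 and fabp7a one of 0.802 (0.675), while rbp2a and rbp4 had 0.306.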

How the data were processed

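Liver RNA from 12 libraries in 4 groups of 3 was sequenced, and groups and replicate numbers were taken from the sample titles. Reads were trimmed with cutadapt, aligned with TopHat2 2.0.11 and quantified with Cufflinks 2.2.1 on danRer7, per the submitters' processing notes. Which gene models were used is not given in the sources used here. The deposited table holds 1 FPKM value per symbol and library, a unit inferred from Cufflinks and the values because the header names none. The summed FPKM ran from 304905 to 1217095 per library. Depth in fragments is unknown, so no counting interval is given. Near-identical copies may share reads, which the table does not resolve.

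The 9190 genes reaching 1 FPKM in 3 or more libraries were transformed as log2(FPKM + 1), where folds of low genes are understated, and fitted with 4 group means in limma 3.58.1 (R 4.3.3, eBayes with an intensity trend, tested on simulated data). P-values were adjusted over all genes by Benjamini-Hochberg, with a threshold of 0.05. Symbols were matched to RefSeq (GRCz12tu) names, 9 of the 10 directly and fabp11a as a synonym. No sequence is shown. Tables and plots were made in Python 3.11.15 (matplotlib 3.10.9, pandas 2.3.3).

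All members found are named, as are, of the retinoid and fatty acid uptake lists, up to 4 genes with the smallest p among those past the threshold for estradiol in males or females, and the 5 genes of most like pattern. Members, lists and alternatives were chosen with earlier results of these data known. Alternatives changed the pseudocount, filter, scaling, samples in the fit, trend and replicate block, added intestine or oocyte marker levels as covariates, or left out libraries. Of a further list, of other binding proteins, only fabp1b.1 is given; the rest is not reported here.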

Additional observations from a re-analysis of the deposited data

How the results depend on the processing

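The 9 members tested were refitted under up to 27 alternatives (26 for the difference between the sexes in the estradiol effect, which has no fit of fewer groups, and 26 for fabp6 in males and between the sexes under estradiol). Of 1204 values, 1158 kept direction and side of the threshold, 30 lost and 16 gained a call, and 0 turned round. A direction was counted only where a value passed the threshold. Most of these values were not called in the main fit, so the total says little about the calls. In males the calls held in 27 (rbp2a), 26 (rbp2b) and 23 (fabp10a) of 27 alternatives. In females they held in 20 (rbp2a), 13 (rbp2b) and 23 (fabp2) of 27. The number of members called stayed within 1.5 times of 3 in males except with the oocyte marker covariate (1, with 2% of all genes called). Without the 2 intestine-rich female DMSO libraries, 1 library was left in that group, which gives no spread of its own. The number of members called in females was 1 with quantile normalization (2.44% of all genes called), 1 after rescaling (0.979%) and 0 with the intestine marker covariate (0.12%). In the main fit 2.73% of all genes were called in females. Between the sexes under DMSO it was 3, in place of 0, both in the fit of the DMSO groups alone, which called 12.7% of all genes, and without the 4 oocyte-rich estradiol libraries, which called 11.2%. Without those 4 libraries it was 1, rbp2a, between the sexes under estradiol (log2 difference 2.75, adjusted p = 0.0372, with 4.86% of all genes called) and 1 for the difference in the estradiol effect (3.08, 0.0410, with 5.89%), with 1 library in each estradiol group assumed to vary like the others. The cause was not tested. Leaving out 1 library gave 3 members in males, or 4 without male estradiol replicate 2, a run that called 24.5% of all genes. In females it gave from 0 without female DMSO replicate 1 (0.429% of all genes) to 4 without male estradiol replicate 1 (5.46%). Between the sexes it gave 0 to 1 under DMSO, 0 under estradiol and 0 to 1 for the difference in effect. The runs with 1 called 1.26% and 1.28% of all genes under DMSO and 0.842% for the difference.

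Replicate numbers recur across groups, but only 4 of 18 same-numbered pairs of libraries had deviations from group means correlated above 0.1 (-0.43 to 0.57). In 11 of 36 comparisons the own number was the best match. Over all groups no pairing by number was seen, though with 3 libraries in each group the check cannot exclude it. The highest correlations, 0.49 and 0.57, were those of replicates 1 and 2 between male and female estradiol, with 0.01 for replicate 3. Oocyte markers were lowest in replicate 2 of both these groups, at 1.73 and 0.0256. Whether the estradiol libraries are paired by number was not tested. A fit with the replicate number as a block left the members called at 3 in males, 3 in females and 0 in the other comparisons. It called 3.38% of all genes in males, 2.03% in females and 0.0435% to 0.511% in the other comparisons. The median change of all genes in males was 0.21, against 0.61 after rescaling, -0.05 with quantile normalization and 0.06 with median-of-ratios scaling. Over all genes, 348 were called in males, against 104 without male DMSO replicate 1 and 2220 without male estradiol replicate 2, and 251 in females, against 39 without female DMSO replicate 1 and 13 without both intestine-rich libraries.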
